A study of Homo sapiens with 88 samples.

Results

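The genes described here encode 4 subunits of the neuronal nicotinic acetylcholine receptor, CHRNA3, CHRNA5, CHRNB4 and CHRNB2. They were followed in 9 established small cell lung cancer (SCLC) lines, each given vehicle or an arm labelled 552A. They were taken by name, with every probe set annotated to 1 of them alone, which gave 7 probe sets for 4 of the 19775 genes that have a probe set of their own. CHRNA3 has 3 probe sets (210221_at, 211587_x_at and 211772_x_at), CHRNA5 has 206533_at, CHRNB4 has 207516_at, and CHRNB2 has 206635_at and 241389_at. All 7 were among the 29598 probe sets tested, which are those with 1 gene symbol and a mean above the median of all values in at least 1 group. CHRNB4 passed that filter in 1 of 42 groups alone, vehicle-treated H2171, so a call of CHRNB4 in that line is no support.

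Nicotinic receptors are cation channels assembled from a ring of subunits and opened by acetylcholine or nicotine. The alpha 3 subunit pairs with beta 4 or beta 2 to form the sites that bind the ligand, and the alpha 5 subunit joins such receptors without binding the ligand itself. In autonomic ganglia and in SCLC, a tumour of neuroendocrine character, receptors built on alpha 3 are the usual form, and the CHRNA5, CHRNA3 and CHRNB4 genes, which lie side by side on chromosome 15, are known for inherited variation associated with smoking and lung cancer. LSD1 is a demethylase that removes methyl groups from histone H3 and represses genes together with partner proteins.

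The study comprised 88 Affymetrix HG-U133 Plus 2.0 arrays of total RNA. Of the 9 lines, 6 were measured as a time course at days 2, 4 and 7 of treatment (COLO668, SHP-77, NCI-H146, NCI-H446, NCI-H510 and NCI-H526) and 3 at day 4 alone (H1417, H2171 and H69), each with DMSO as the vehicle or with an arm labelled 552A. The treatment protocol names 1 µM GSK2879552, an LSD1 inhibitor, beside DMSO, and no label states that 552A is that compound. All cells grew in RPMI medium with 10% fetal bovine serum, at passages given only as multiple. A line, treatment and day make a group; 39 groups held 2 arrays, 2 held 3 and 1 held 4. The labels do not say whether replicates were separate cultures, so p-values measure the spread between these arrays, which may be technical. The design text speaks of sensitive and resistant lines among 6, and neither it nor the labels say which lines were which.

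Values are log2 signals as deposited, and a response is 552A minus DMSO on that scale, averaged over the days of a line. A call is an adjusted p (limma's moderated test, two-sided, Benjamini-Hochberg over 29598 probe sets) under 0.05. Array medians lay between 7.36 and 7.46. In 5 arrays of SHP-77 and COLO668 at day 7 the ACTB 3′ probe signal exceeded the 5′ signal by more than 0.8, a sign of degraded RNA, and 1 array, NCI-H446 DMSO day 4 replicate 2, had a narrow interquartile range of 2.56 against a median of 3.05; results of the members that gain or lose a call without these 6 arrays are given with and without them. As a check of the labelled cell type, between 9 and 12 of 12 measured neuroendocrine markers had a mean above the filter in every line, with NCI-H526 lowest, while NCI-H526 had 6 of 8 markers of other SCLC states above it and the other lines 2 to 4. Of 8 measured immune markers 1 or 2 were above it in each line, and PTPRC, which defines leukocytes, had line means between 4.59 and 5.75 at its brightest probe set, below the lower quartile of the arrays. Another of its probe sets, the one that passed the filter and was tested, lay between 3.93 and 4.45 in 8 lines and at 6.34 in NCI-H146. Of 10 fibroblast and endothelial markers 2 to 5 were above the filter in a line, with 5 in NCI-H446. CDH5, the endothelial cadherin, had a mean of 11.00 in NCI-H446 and 5.08 to 5.50 in the other lines, and COL1A2, a fibrillar collagen chain, had 11.92 in H69, the line with the most CHRNA3, and 6.95 to 8.94 in the others. The part of these markers in the results was not tested.

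In RefSeq's annotation of GRCh38.p14, CHRNA5 spans chr15:78565520-78595269, CHRNA3 spans chr15:78593052-78620996 and CHRNB4 spans chr15:78624111-78661641. The CHRNA5 and CHRNA3 spans overlap by 2218 bases, CHRNB4 begins 3114 bases beyond CHRNA3, and the 3 genes together take up 96122 bases. CHRNB2 lies apart, at chr1:154567778-154580013. The 250 bases before the listed start of each gene were available for CHRNA3, CHRNB4 and CHRNB2 and are shown because CHRNA3 and CHRNB4 are neighbouring genes that were both lower with 552A in H2171, and CHRNB2 lies elsewhere. They are written 5′ to 3′ from RefSeq, with capitals for the E-box cores CAGCTG and CAGGTG or its reverse complement CACCTG, which basic helix-loop-helix and zinc finger factors bind:
CHRNA3 (chr15:78620997-78621246, minus strand): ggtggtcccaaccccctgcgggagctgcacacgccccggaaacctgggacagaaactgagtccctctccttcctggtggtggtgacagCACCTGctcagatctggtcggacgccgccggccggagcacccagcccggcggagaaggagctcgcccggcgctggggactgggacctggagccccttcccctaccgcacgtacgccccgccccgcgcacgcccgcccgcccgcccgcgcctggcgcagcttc
CHRNB4 (chr15:78641211-78641460, minus strand): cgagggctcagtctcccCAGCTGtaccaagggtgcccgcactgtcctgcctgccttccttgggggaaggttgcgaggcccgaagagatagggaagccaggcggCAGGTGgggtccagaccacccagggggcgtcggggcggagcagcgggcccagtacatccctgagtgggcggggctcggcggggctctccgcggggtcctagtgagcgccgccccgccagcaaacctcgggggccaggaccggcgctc
CHRNB2 (chr1:154567528-154567777, plus strand): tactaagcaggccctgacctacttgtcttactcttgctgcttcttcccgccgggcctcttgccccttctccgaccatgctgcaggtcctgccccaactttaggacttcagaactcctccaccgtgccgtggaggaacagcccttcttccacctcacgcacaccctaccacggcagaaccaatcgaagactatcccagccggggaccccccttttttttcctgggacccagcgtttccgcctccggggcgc

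The CHRNA3 window held 1 CAGGTG core, as CACCTG 162 bases before the start, and no CAGCTG. The CHRNB4 window held 1 CAGCTG 233 bases and 1 CAGGTG 147 bases before the start, which lies within the gene's annotated span. The CHRNB2 window held neither. Over 27305 genes with such a window, 13.8% held CAGCTG and 17.5% held CAGGTG on either strand. The GC box GGGCGG, a core bound by Sp1 and Sp3, or its reverse complement CCGCCC, occurred 4 times before CHRNA3, within the last 46 bases and partly overlapping, 3 times before CHRNB4, and not before CHRNB2, against 42.3% of all windows with at least 1. G and C made up 73.6% of the CHRNA3 window, 72.4% of the CHRNB4 window and 60.4% of the CHRNB2 window, where the median of all windows was 58.0%. These matches describe the letters of the windows and no binding was measured here.

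In vehicle-treated cells the subunit genes differed widely in how far their levels varied between lines. The moderated F test that the 9 DMSO means at day 4 are equal was called for all 7 probe sets, as it was for 96.7% of all probe sets, so the range and the order are more informative than the call. The ranges, means, SDs and overlaps below take all vehicle arrays of a line. These come from days 2, 4 and 7 in the time course lines and from day 4 alone in H69, H2171 and H1417. CHRNA3 (210221_at) had the widest range, 5.54 log2 units or 46.5-fold between H69 and NCI-H526. CHRNB4 ranged over 2.79 units, CHRNA5 over 2.49 units (5.63-fold), and the CHRNB2 probe sets over 0.48 and 0.95 units. Signals of different probe sets are on no common scale, so these are ranges within a probe set and not a ranking of the genes.

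CHRNA3, the ligand-binding alpha subunit, was highest in H69, at 12.28 and 12.30 in its 2 DMSO arrays (12.29 ± 0.01, SD, n = 2). H2171 followed with 10.73 and 10.48 (10.60 ± 0.18, SD, n = 2), and SHP-77 with 9.90, 10.26 and 10.49 as the lowest, median and highest (10.23 ± 0.25, SD, n = 6). The arrays of H2171, all of day 4, overlapped those of SHP-77 taken over its days, while those of H69 stood 1.69 units above H2171 on average. At day 4 itself the SHP-77 vehicle arrays, 9.90 and 9.96, lay below those of H2171. NCI-H146 ranged from 8.27 to 9.19 with a median of 8.75 (8.73 ± 0.43, SD, n = 6) and did not overlap its neighbours in the order. COLO668 (7.98 ± 0.07, SD, n = 6), NCI-H510 (7.92 ± 0.09, SD, n = 6), H1417 (7.83 ± 0.18, SD, n = 2) and NCI-H446 (7.76 ± 0.14, SD, n = 7) formed a run in which each overlapped the next. NCI-H526 was lowest, between 6.56 and 6.90 (6.75 ± 0.12, SD, n = 6), below every vehicle array of the other lines. The other CHRNA3 probe sets kept H69, H2171, SHP-77 and NCI-H146 as the first 4, and their DMSO means correlated with those of 210221_at at r = 0.97 for both over the 9 lines; 211772_x_at placed H1417 last, at 6.94 ± 0.23 (SD, n = 2), in place of NCI-H526.

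CHRNA5, the accessory subunit, was also highest in H69 (10.64 and 10.57) and H2171 (10.39 and 10.29), and these did not overlap each other or the next line. NCI-H526 came next, at 10.01 ± 0.07 (SD, n = 6), so the line with the least CHRNA3 signal was among the higher lines for CHRNA5. SHP-77 (9.86), H1417 (9.84) and NCI-H510 (9.82) overlapped their neighbours, NCI-H146 stood at 9.60 ± 0.06 (SD, n = 6), and NCI-H446 at 9.13 ± 0.32 (SD, n = 7), where the lowest of its 7 arrays, 8.50, was the array with the narrow interquartile range. COLO668 was lowest, between 7.84 and 8.33 with a median of 8.13 (8.11 ± 0.16, SD, n = 6), more than 1 unit below NCI-H446.

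CHRNB4, the beta subunit that pairs with alpha 3 in ganglia, was measured well in H2171 alone, at 8.19 and 7.61 in DMSO (7.90 ± 0.40, SD, n = 2). H69 was next at 6.10 and 5.73 (5.91 ± 0.26, SD, n = 2). In the other 7 lines the DMSO means lay between 5.11 and 5.27 and overlapped from 1 line to the next. In 85 of the 88 arrays the probe set read below 6.09, the median of the arrays' lower quartiles, so an order among those lines cannot be read. CHRNB2, the beta subunit of most brain receptors, was nearly level: 206635_at ran from 8.72 ± 0.06 (SD, n = 2) in H1417 to 9.20 ± 0.09 (SD, n = 6) in COLO668, with 7 of the 8 neighbouring pairs overlapping. Its second probe set, 241389_at, was highest in SHP-77 (9.16 ± 0.09, SD, n = 6), without overlap to NCI-H526 (8.86 ± 0.09, SD, n = 6), and lowest in H1417 (8.21 ± 0.10, SD, n = 2).

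**Figure D1:**
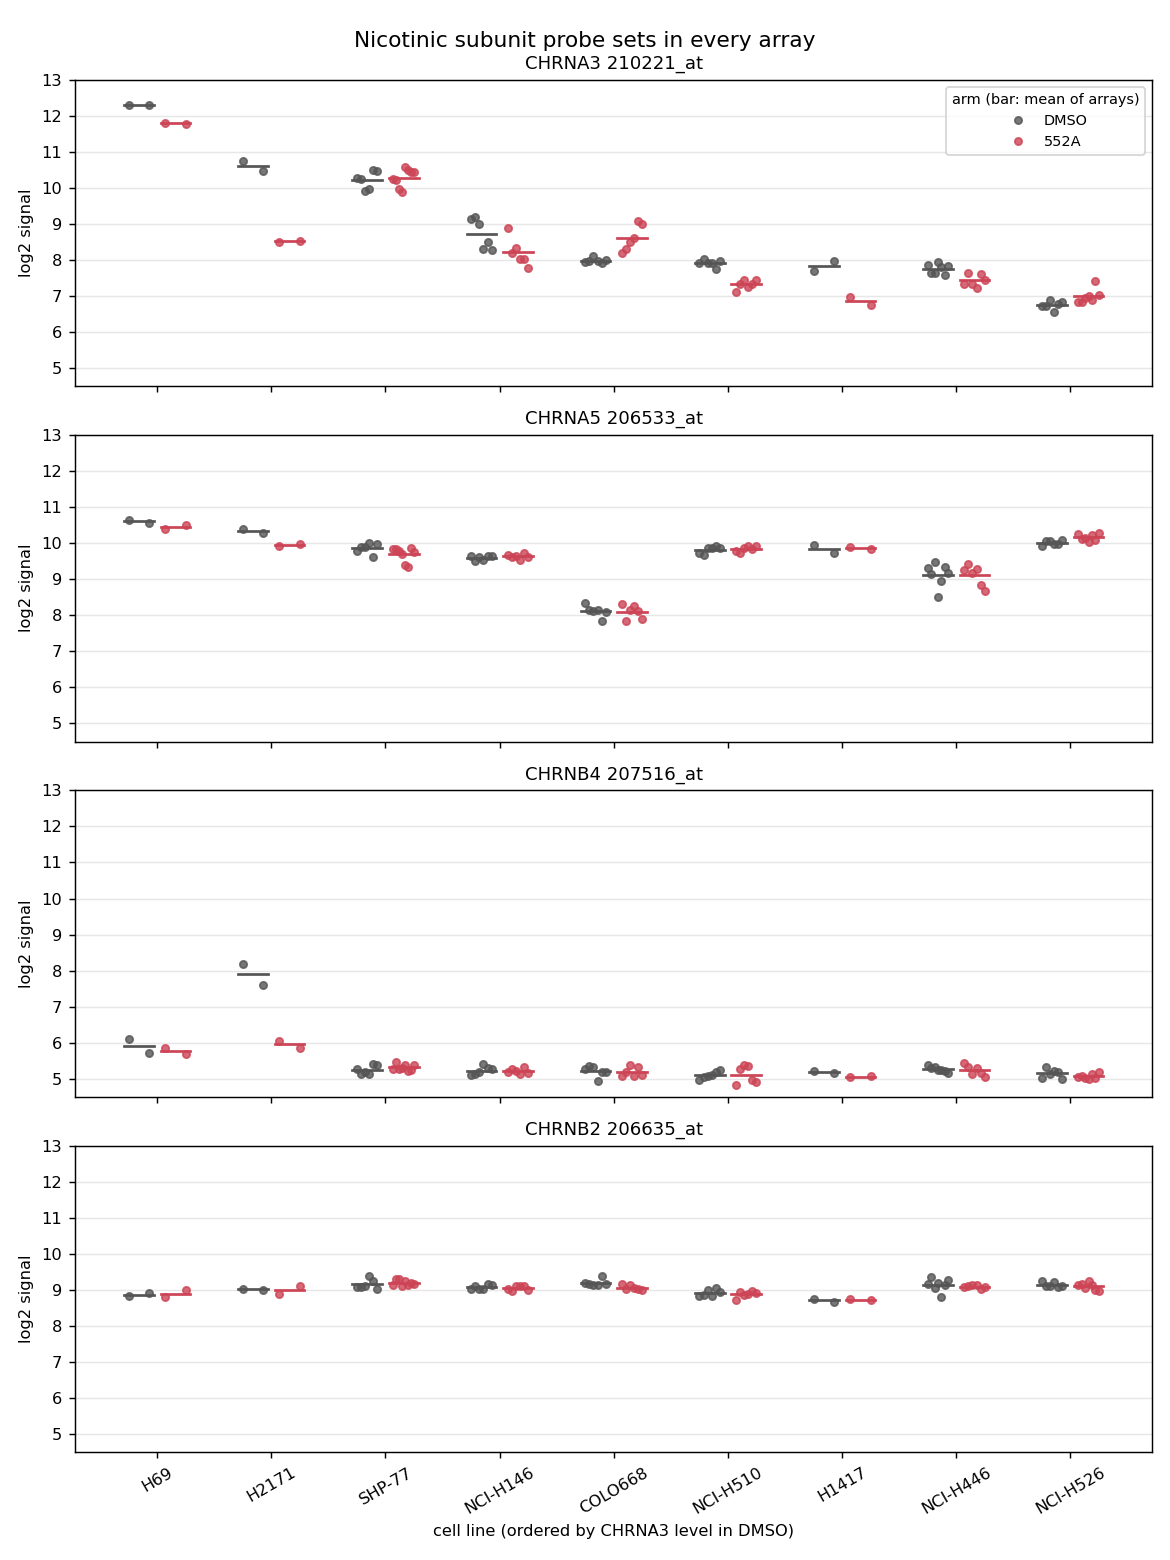
The log2 signal (vertical axis) of 1 probe set per gene in every array is plotted for the 9 lines (horizontal axis, ordered by the CHRNA3 mean in DMSO), with DMSO in grey, 552A in red and a bar for the mean of the arrays. CHRNA3 falls from 12.29 in H69 to 6.75 in NCI-H526 among DMSO means, CHRNB4 rises clearly above the rest in vehicle-treated H2171 alone, and CHRNB2 is nearly level.

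Across the 9 lines, the DMSO means of CHRNA5 and CHRNA3 correlated at r = 0.54 (Spearman's rho 0.45), those of CHRNA3 and CHRNB4 at r = 0.56 (rho 0.67) and those of CHRNA5 and CHRNB4 at r = 0.44 (rho 0.35). Without the 2 lines farthest from the median, the values were 0.41, 0.53 and 0.61. The points share their arrays and scaling, CHRNB4 was dim in most lines, and the correlations are given as a description. Of all genes, the DMSO levels most like CHRNA3's over the 9 lines were those of PLAC1 (r = 0.94), MRPL41 (0.93) and TNC (0.92), and without H69 and H2171 these fell to 0.77, 0.74 and 0.74. For CHRNA5 they were KAT7 (0.96), ZNF268 (0.95) and ATP6V0A2 (0.94), and for CHRNB4 IGHM (0.99), FABP3 (0.98) and FOXN1 (0.98), which without H2171 and H69 were 0.64, 0.37 and 0.63. For CHRNB2 they were NKAIN4 (0.97), ZAN (0.96) and LOC101929488 (0.95).

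With 552A, CHRNA3 was called lower in 5 of 9 lines at 210221_at, in 2 at 211587_x_at and in 4 at 211772_x_at. It was called higher in 2 lines, at 210221_at alone. CHRNB4 fell in H2171, and the single CHRNA5 probe set and CHRNB2 206635_at passed the test in no line. Over 7 probe sets and 9 lines, 16 of 63 responses were called, 2 higher and 14 lower, where 8.27% of all probe sets were called over the same lines, 4.86% higher and 3.41% lower. The members were chosen with earlier results of these data known, so these shares are a description and no test of the set. Of the 16 calls, 13 belonged to the 3 CHRNA3 probe sets, 1 to CHRNB4 and 2 to CHRNB2 241389_at. CHRNB4 passed the filter through the vehicle arm of H2171, where it is high, so its call is no support; without it 15 of 54 responses were called, 2 higher and 13 lower. Without the 6 arrays named above the count over 7 probe sets was 19. The share of all probe sets called in that setting is not given here, so 19 is not read as more response of the members than 16. The share of all probe sets called was 6.12% in SHP-77, 17.5% in NCI-H526, 12.7% in NCI-H510, 17.2% in COLO668, 4.93% in NCI-H146, 4.36% in NCI-H446, 3.06% in H69, 1.42% in H2171 and 7.05% in H1417.

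CHRNA3 (210221_at) fell in 5 lines and rose in 2. The strongest fall was in H2171, from 10.73 and 10.48 in DMSO to 8.51 and 8.53 with 552A. Its response there was -2.08 ± 0.15 (SE; 4.24-fold lower, adjusted p = 2.28e-14 by limma). In H1417 the arrays went from 7.71 and 7.96 to 6.97 and 6.74, a response of -0.98 ± 0.15 (SE, adjusted p = 5.08e-06 by limma). With the 4 arrays of H1417 fitted alone, the adjusted p was 0.0502 by limma. The treated arrays of H2171 and H1417 lay below all vehicle arrays of the same line.

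In NCI-H510 the 6 DMSO arrays ran from 7.76 to 8.02 with a median of 7.91 and the 6 treated arrays from 7.10 to 7.46 with a median of 7.34, again without overlap, for a response of -0.59 ± 0.09 (SE, adjusted p = 9.02e-07). In NCI-H146 the DMSO arrays ran from 8.27 to 9.19 and the treated arrays from 7.78 to 8.89, which overlap over the whole time course, and the response within days was -0.52 ± 0.09 (SE, adjusted p = 2.96e-05). NCI-H446 gave the smallest called fall, -0.32 ± 0.09 (SE, adjusted p = 0.0184), with overlapping arrays of 7.58 to 7.95 in DMSO and 7.21 to 7.65 with 552A. That call was lost on leaving out any of 5 of its 13 arrays in turn (552A day 2 replicate 1, day 4 replicate 2 and day 7 replicate 2, and DMSO day 2 replicate 1 and day 7 replicate 2), over which the response ranged from -0.37 to -0.26, and with the arrays of NCI-H446 fitted alone (adjusted p = 0.24).

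In the opposite direction, CHRNA3 in COLO668 rose from DMSO arrays of 7.91 to 8.11 (median 7.97) to treated arrays of 8.20 to 9.07 (median 8.54), without overlap. The response was 0.63 ± 0.09 (SE, adjusted p = 2.34e-07), or 1.54-fold. In NCI-H526, the line with the lowest level, the DMSO arrays ran from 6.56 to 6.90 and the treated arrays from 6.82 to 7.43, which overlap. Its response of 0.26 ± 0.09 (SE, adjusted p = 0.0300) was lost on leaving out any of 7 of its 13 arrays in turn (552A day 2 replicate 3, day 4 replicate 1 and day 7 replicate 1, and DMSO day 2 replicates 1 and 2, day 4 replicate 2 and day 7 replicate 1), over a range of 0.19 to 0.32.

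H69 and SHP-77, 2 of the 3 lines with the most CHRNA3, were not called at 210221_at. In H69 the 2 treated arrays, 11.80 and 11.78, lay below the DMSO arrays of 12.28 and 12.30, and the response of -0.51 ± 0.15 (SE) had an adjusted p of 0.0584. It passed with 1 probe set per gene (adjusted p = 0.0437). In SHP-77 the response was -0.01, with a 95% confidence interval of -0.18 to 0.16, so a change as large as that in NCI-H446 lay outside the interval. The responses of 210221_at differed between lines by the moderated F test, both over the 6 time course lines (F = 28.6, adjusted p = 5.59e-12, where 31.8% of all probe sets were called) and over the day 4 responses of all 9 lines (F = 23.5, adjusted p = 4.13e-12, where 12.8% were called).

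**Figure D2:**
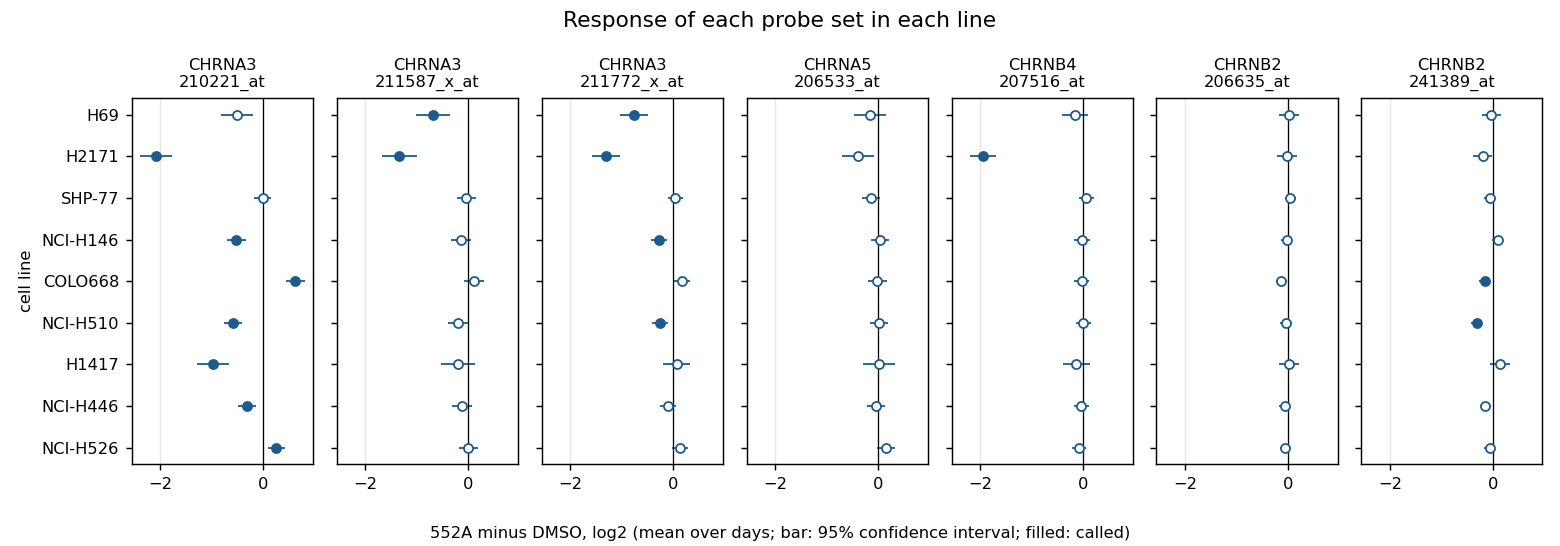
The response of each of the 7 probe sets (horizontal axes, 552A minus DMSO in log2 units, mean over days) is plotted for the 9 lines (vertical axis), with 95% confidence intervals from the fit and filled points for calls. CHRNA3 210221_at spans -2.08 in H2171 to 0.63 in COLO668, CHRNB4 departs from 0 in H2171 alone, at a measured -1.95 with a dim treated arm, and the CHRNA5 points lie between -0.38 and 0.15.

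The other 2 CHRNA3 probe sets gave the fall in H2171 and H69 but were called in fewer lines. In H2171, 211587_x_at went from 10.06 and 9.77 to 8.64 and 8.50 (response -1.34 ± 0.17, SE, adjusted p = 1.69e-07) and 211772_x_at from 9.18 and 9.01 to 7.70 and 7.88 (-1.31 ± 0.13, SE, adjusted p = 7.69e-10). In H69 the responses were -0.68 (adjusted p = 0.00869) and -0.75 (adjusted p = 0.000104), so the line that missed the threshold at 210221_at passed it at the other probe sets; leaving out any 1 of the 4 H69 arrays ended the call for 211587_x_at. The probe set 211772_x_at also fell in NCI-H510 (-0.25, adjusted p = 0.0197) and NCI-H146 (-0.28, adjusted p = 0.0163). The NCI-H510 call was lost without DMSO day 2 replicate 2 or day 4 replicate 1 or without 552A day 2 replicate 1 or day 7 replicate 2 (-0.19 at the smallest), and the NCI-H146 call without DMSO day 4 replicate 1 or day 7 replicate 2 or without replicate 2 of 552A at day 2, 4 or 7 (-0.23 at the smallest). In H1417 the probe sets disagreed: against -0.98 at 210221_at, 211587_x_at gave -0.20 (95% confidence interval -0.53 to 0.13) and 211772_x_at gave 0.07 (-0.20 to 0.33). In COLO668 they gave 0.12 and 0.17, neither called, against 0.63, and without the arrays in doubt 211772_x_at gave 0.22 (adjusted p = 0.0476). In NCI-H510 the response of 211587_x_at, -0.20, had an adjusted p of 0.194 with all arrays and 0.0339 without those in doubt, none of which is of NCI-H510. Over the 9 lines the responses of 211587_x_at had the same sign as 210221_at in 9 and those of 211772_x_at in 7, with correlations of r = 0.87 and 0.81. The names of 211587_x_at and 211772_x_at end in _x_at, which marks probes that can match other transcripts.

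CHRNB4 in H2171 was at 8.19 and 7.61 in DMSO and at 6.05 and 5.86 with 552A, a measured difference of -1.95. Both treated arrays lay under 6.09, where the probe set counts as dim, so the treated level has only an upper bound. Set against 6.09, the fall was at least 1.81 log2 units, or at least 3.50-fold, with 2 arrays an arm. Since the vehicle arm of H2171 is the group through which CHRNB4 passed the filter, this is a description and no p is given. In the other 8 lines, where both arms were dim apart from 1 vehicle array of H69, responses lay between -0.15 and 0.06 and none was called. Without H2171 the probe set passed the filter in no group, so a difference between lines could not be tested apart from it.

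CHRNA5, in the same cluster, was called in 0 of 9 lines by limma, and at an unadjusted p under 0.05 in 1, H2171. There the arrays went from 10.39 and 10.29 to 9.93 and 9.99, without overlap, and the response was -0.38 (95% confidence interval -0.70 to -0.07, adjusted p = 0.354). Without the 6 arrays named above, none of them of H2171, the same value had an adjusted p of 0.0414. In the other 8 lines the responses lay between -0.15 and 0.15, and the F tests gave 1.15 over the time course lines (adjusted p = 0.479) and 1.63 over 9 lines (adjusted p = 0.394). The first was 3.03 (adjusted p = 0.0498) with the ACTB difference as a covariate, and the second 3.62 (adjusted p = 0.0113) without NCI-H446 DMSO day 4 replicate 1. The latter setting kept replicate 2 of that group, the array of narrow interquartile range, whose CHRNA5 signal was 8.50. No other single array left out gave the call over 9 lines. The response intervals of the 6 time course lines reached no further than -0.31 and 0.32. With the ACTB difference as a covariate, the SHP-77 response of CHRNA5 was called (-0.22, adjusted p = 0.0465 by limma), against -0.13 with no covariate.

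CHRNB2 moved little. At 206635_at no line was called, 1 had an unadjusted p under 0.05, and the responses lay between -0.13 and 0.05. At 241389_at the NCI-H510 arrays ran from 8.34 to 8.68 in DMSO and from 7.92 to 8.47 with 552A, a response of -0.31 ± 0.06 (SE, adjusted p = 1.87e-05). In COLO668 the response was -0.16 (adjusted p = 0.0375), and without the arrays in doubt it was -0.07 (adjusted p = 0.382). Leaving out DMSO day 2 replicate 1, day 4 replicate 2 or day 7 replicate 1, or 552A day 2 replicate 1, day 4 replicate 1 or day 7 replicate 2, also ended that COLO668 call. The 206635_at response in COLO668, -0.13 (adjusted p = 0.104), passed without DMSO day 7 replicate 2 (-0.16, adjusted p = 0.0473). In NCI-H446 the 241389_at response was -0.15 (adjusted p = 0.121), and without the array in doubt -0.17 (adjusted p = 0.0324). The F test of 241389_at over 9 lines gave 2.71 (adjusted p = 0.0913), and without the 6 arrays 3.56 (adjusted p = 0.0184). It was also called without NCI-H446 DMSO day 4 replicate 1 (2.75, adjusted p = 0.0454) or replicate 2 (3.15, adjusted p = 0.0411). The probe sets of CHRNB2 gave unlike values in NCI-H510, where 206635_at gave -0.04 with a 95% confidence interval of -0.15 to 0.07.

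**Figure D3:**
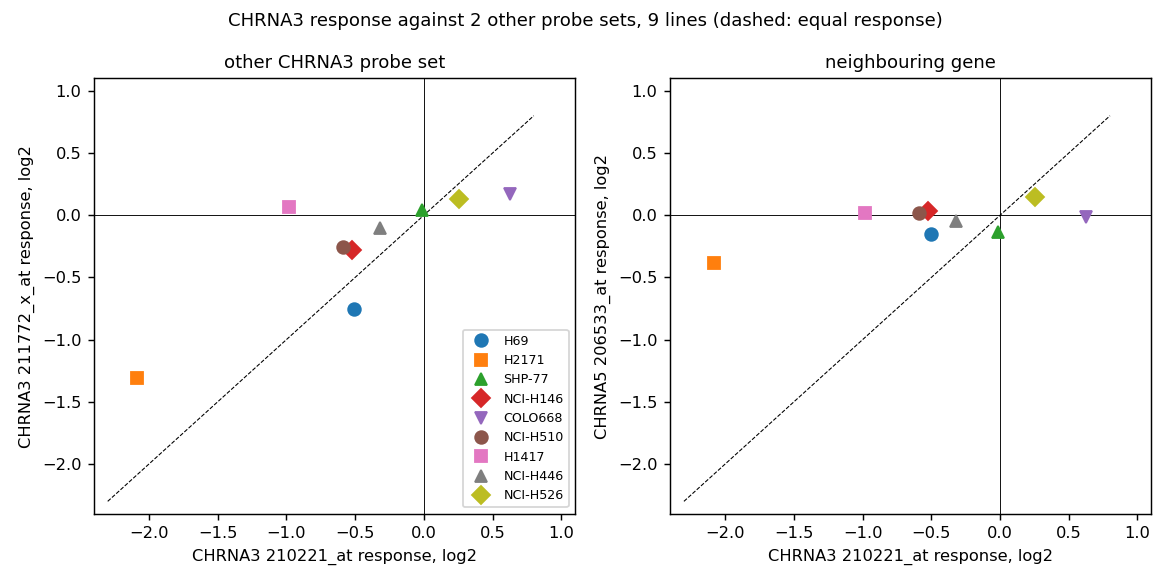
The response of CHRNA3 210221_at (horizontal axis, log2 units) is plotted against that of CHRNA3 211772_x_at (left) and of CHRNA5 (right) in the 9 lines, with a dashed line for equal responses. H2171 lies at -2.08 and -1.31 for the CHRNA3 probe sets and at -0.38 for CHRNA5, and the other CHRNA5 points stay within -0.15 to 0.15 while CHRNA3 runs from -0.98 to 0.63.

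Within a line, whether 2 genes of the cluster changed unequally was tested on the difference of their signals in each array, by an exact permutation test of the treatment labels within day, two-sided, in the 6 time course lines (18 tests, adjusted together by Benjamini-Hochberg). CHRNA3 was read through 210221_at alone in this comparison. At that probe set, CHRNA3 against CHRNA5 was called in 3 of 6 lines. The CHRNA3 response minus the CHRNA5 response was -0.61 in NCI-H510, -0.56 in NCI-H146 and 0.64 in COLO668. Each had an exact p of 0.00926 by permutation, the smallest the design allows there, and an adjusted p of 0.0238. CHRNA5 itself responded by 0.02 in NCI-H510, 0.04 in NCI-H146 and -0.01 in COLO668. The other CHRNA3 probe sets, 211587_x_at and 211772_x_at, moved less in these lines. Their responses were -0.20 and -0.25 in NCI-H510, -0.14 and -0.28 in NCI-H146, and 0.12 and 0.17 in COLO668. They were not tested against CHRNA5, so the calls hold for 210221_at and are not shown for the gene as a whole. Without the arrays in doubt the COLO668 difference was 0.64 with an adjusted p of 0.0625. For CHRNA3 against CHRNA5 the difference was 0.11 in NCI-H526 (adjusted p = 0.511), 0.12 in SHP-77 (adjusted p = 0.349) and -0.27 in NCI-H446 (adjusted p = 0.349). CHRNB4 was dim in all 76 arrays of these lines, so the 4 of 12 tests with CHRNB4 that were called restate the change of the other gene and are not read further. Without the arrays in doubt 5 of the 18 tests were called, in place of 7; the COLO668 tests of CHRNA3 against CHRNA5 and of CHRNB4 against CHRNA3 (-0.61, adjusted p = 0.0625) lost the call. In the day 4 lines, where 2 against 2 arrays cannot give a p below 0.333, the difference of CHRNA3 from CHRNA5 was -1.70 in H2171 and -0.35 in H69, and in H1417 CHRNA3 responded by -0.98 and CHRNA5 by 0.02.

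Over the 9 lines the responses of CHRNA3 and CHRNB4 correlated at r = 0.80, those of CHRNA5 and CHRNB4 at r = 0.80, and those of CHRNA5 and CHRNA3 at r = 0.67. Without H2171 and 1 more line (COLO668, NCI-H526 and NCI-H526) they were 0.36, 0.06 and -0.23, so these correlations rest on H2171. Rank correlations over the 9 lines were 0.38, 0.30 and 0.20. The genes whose responses were most like CHRNA3's were SEC22B (r = 0.94), CLDN10 (0.91) and BMS1P2 (0.90), with ranges of -0.24 to 0.12, -1.13 to 1.31 and -0.26 to 0.08 across lines, and without H2171 and COLO668 they were 0.92, 0.82 and 0.61. For CHRNB4 the 3 most alike were GHRL, RNF112 and YWHAG (r from 0.96 to 0.98), which without H2171 and H69 lay between -0.27 and 0.36. For CHRNA5 they were ZNF71, ZNF865 and FOXP2 (0.94 to 0.97), and for CHRNB2 206635_at ACACB, DNAJA4 and PLB1 (0.95 to 0.98).

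By day, the CHRNA3 responses in the time course lines kept their sign in 5 of the 6 lines, and SHP-77 stayed between -0.03 and 0.00. Over 7 probe sets and 18 line-days, 8 of 126 responses were called, where 4.59% of all probe sets were, from 0.324% in SHP-77 at day 2 to 22.7% in COLO668 at day 7. Of the 8, 5 were CHRNA3 210221_at. In NCI-H510 it was -0.74 at day 2 (DMSO 7.90 and 8.02, 552A 7.10 and 7.34, adjusted p = 0.00125), -0.56 at day 4 (adjusted p = 0.0237) and -0.47 at day 7 (adjusted p = 0.0648), in comparisons that called 2.57%, 3.66% and 4.95% of all probe sets. In NCI-H146 it was -0.63 at day 2 (adjusted p = 0.0296, background 0.733%), where the treated arrays, 8.89 and 8.19, lay far apart, then -0.46 and -0.48 at days 4 and 7. With the arrays of NCI-H146 fitted alone, the day 2 value had an adjusted p of 0.303. In NCI-H446 it was -0.53 at day 4 (adjusted p = 0.0133, background 12.6%), and without the array of narrow interquartile range -0.45 (adjusted p = 0.106). With the arrays of NCI-H446 fitted alone, the day 4 value had an adjusted p of 0.388.

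COLO668 was the line in which the change of the CHRNA3 response from day 2 to day 7 was called. The DMSO arrays were 7.94 and 7.96 at day 2, 8.11 and 7.97 at day 4 and averaged 7.96 at day 7. The treated arrays were 8.20 and 8.30, then 8.49 and 8.60, then 9.07 and 8.99. At each day they lay above the vehicle arrays, with responses of 0.30 (adjusted p = 0.63), 0.50 (adjusted p = 0.0655) and 1.08 (adjusted p = 3.81e-07). The change from day 2 to day 7 was 0.78 ± 0.22 (SE, adjusted p = 0.0358, where 2.8% of all probe sets were called in COLO668), and no other member had a called change in any time course line. In NCI-H526 the CHRNA3 responses at days 2, 4 and 7 were 0.15, 0.20 and 0.42, and the change of 0.27 was not called (adjusted p = 1.00); it was not tested against that of COLO668. At day 7 the ACTB 3′ minus 5′ difference was 0.96 in the treated COLO668 arrays and 0.70 in DMSO; without the arrays in doubt the change was 0.77 with an adjusted p of 0.0513, and with the arrays of COLO668 fitted alone the adjusted p was 0.0609.

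**Figure D4:**
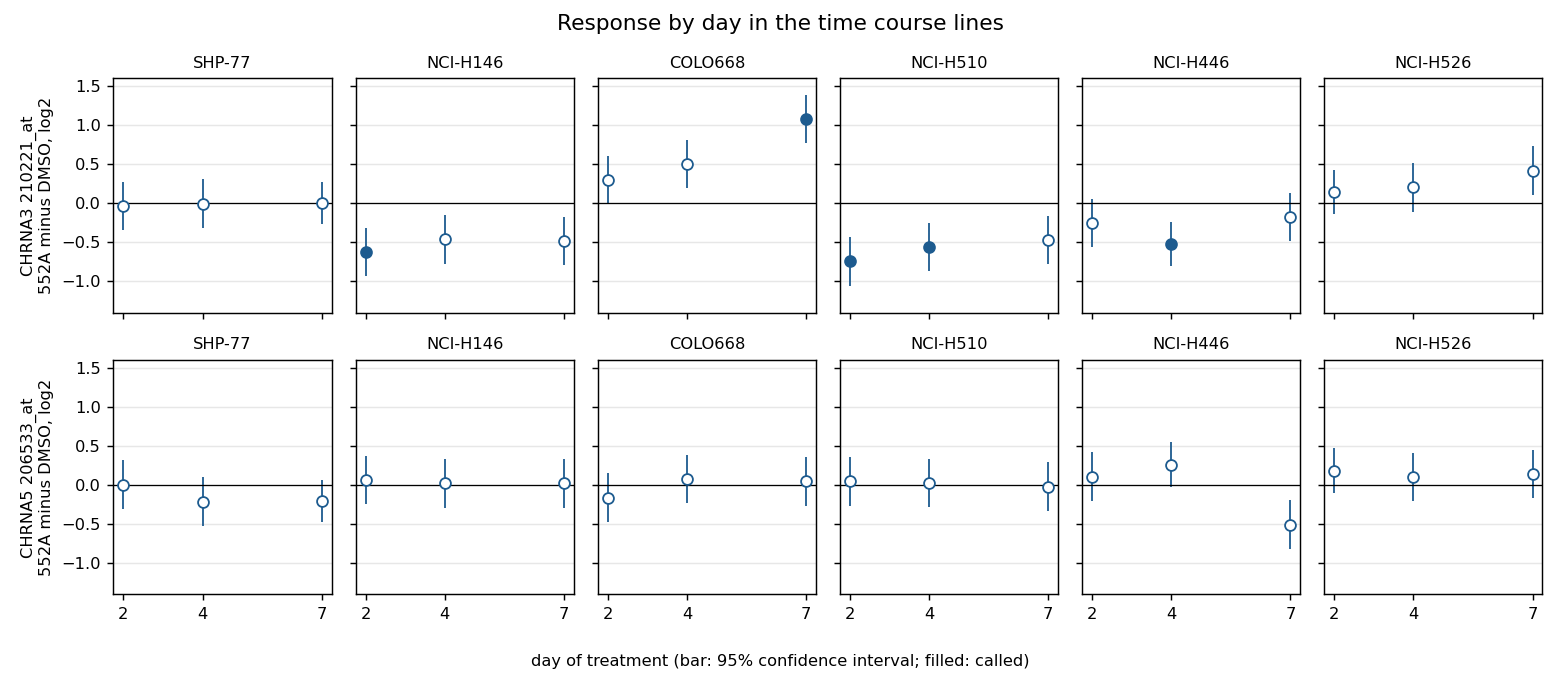
Responses of CHRNA3 210221_at (upper row) and CHRNA5 206533_at (lower row) in log2 units (vertical axes) are plotted against day of treatment (horizontal axes) for the 6 time course lines, with 95% confidence intervals and filled points for calls. CHRNA3 in COLO668 goes from 0.30 at day 2 to 1.08 at day 7, while the CHRNA5 points are within 0.26 of 0 apart from -0.51 in NCI-H446 at day 7.

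CHRNA5 had no called day among the 18 by limma. Its furthest value was -0.51 in NCI-H446 at day 7 (DMSO 9.34 and 9.16, 552A 8.83 and 8.66, without overlap, adjusted p = 0.075), against 0.11 at day 2 and 0.26 at day 4. The day 4 vehicle arrays ran from 8.50 to 9.47, and the lowest was the array of narrow interquartile range. Without the 6 arrays in doubt the day 7 value had an adjusted p of 0.00271, and the change from day 2 to day 7 was -0.62 (adjusted p = 0.0441). With quantile normalization of all arrays the day 7 value was -0.50 (adjusted p = 0.0234). CHRNB2 241389_at in NCI-H510 was called at day 4 (8.58 and 8.51 against 8.24 and 8.16, -0.35, adjusted p = 0.0206) and day 7 (8.34 and 8.50 against 8.01 and 7.92, -0.46, adjusted p = 0.000722). CHRNB2 206635_at was called in COLO668 at day 7 (-0.27, adjusted p = 0.0386), and without the arrays in doubt it was -0.14 (adjusted p = 0.403). With the arrays of COLO668 fitted alone its adjusted p was 0.119.

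The vehicle arm itself moved in 1 case. In NCI-H146, DMSO levels of CHRNA3 were 9.14 and 9.19 at day 2, 8.99 and 8.29 at day 4 and 8.51 and 8.27 at day 7, a fall of 0.78 on the log2 scale by day 7 (change -0.78 ± 0.15, SE, adjusted p = 0.0215, where 0.0473% of all probe sets were called in that line). The fall in vehicle was larger than the response to 552A in NCI-H146 at any of the 3 days, and with the arrays of NCI-H146 fitted alone it was not called (adjusted p = 0.21). For CHRNB2 241389_at in COLO668, the change in vehicle was -0.13 (adjusted p = 0.548), and without the arrays in doubt -0.28 (adjusted p = 0.0424).

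Taking each line as 1 replicate, no member had a shared response at day 4 over the 9 lines by limma. An unadjusted p under 0.05 was reached by 2 of 7 probe sets, and by 3351 of all 29598. CHRNA3 210221_at averaged -0.49 (95% confidence interval -0.95 to -0.03, adjusted p = 0.411) and CHRNA5 -0.03 (-0.16 to 0.11). Only 0.00338% of all probe sets, 1 of 29598, was called in that test. Tested at the level of arrays, where lines are not replicates, the same mean for CHRNA3 had an adjusted p of 1.07e-10, and 10.6% of all probe sets were called.

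The other genes of cholinergic signalling were read through 1 probe set per gene, over which 9.57% of 138168 gene and line pairs were called, 5.58% higher and 3.99% lower. Of 12 other nicotinic subunit genes, 10 had a probe set of their own and 7 were tested; 6 of 63 pairs were higher and 1 lower. CHRNA9, a subunit of hair cells, rose in NCI-H510 (1.37, adjusted p = 2.89e-14), COLO668 (0.68) and SHP-77 (0.57). CHRNA10, its usual partner, fell in NCI-H526 (-0.72, adjusted p = 1.14e-10). CHRNB1, a muscle-type subunit, rose in 2 lines and CHRNA1 in 1. None of the 3 tested muscarinic receptor genes was called except CHRM5, which fell in SHP-77 (-0.46, adjusted p = 0.0243).

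Of 14 genes of receptor assembly and modulation, all 14 were tested, and 18 of 126 pairs were higher and 8 lower. LYPD6, a membrane-anchored protein that acts on nicotinic receptors, rose in H69 (1.23), NCI-H526 (0.80) and NCI-H146 (0.28) and fell in NCI-H510 (-0.25), and its relative LYPD6B was called in the same 4 lines with the same signs (1.16, 0.50, 0.63 and -0.51). TMEM35A, a chaperone of nicotinic receptors, and VSNL1, a calcium sensor, each rose in 3 lines. RIC3, another chaperone, rose in 1.

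Among 9 genes of acetylcholine synthesis, transport and breakdown, 7 were tested and 11 of 63 pairs were higher and 4 lower. SLC18A3, the vesicular acetylcholine transporter, rose in NCI-H510 (1.13, adjusted p = 7.18e-13) and fell in NCI-H526 (-0.98, adjusted p = 1.82e-11). PRIMA1, the membrane anchor of acetylcholinesterase, fell in H69 (-0.99) and H1417 (-0.43) and rose in NCI-H526 (0.53) and SHP-77 (0.28), while ACHE itself was called in no line, with responses between -0.18 and 0.13. CHAT, which makes acetylcholine, did not pass the filter and was not tested. Of 14 genes placed downstream of nicotinic receptors, 8 of 126 pairs were higher and 13 lower; CACNA1A, a presynaptic calcium channel subunit, fell in 5 lines, from -0.74 in NCI-H146 to -1.37 in H1417, and PRKCA, a protein kinase C, rose in 4.

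Around the cluster on chromosome 15, 9 of 14 neighbouring genes were tested and 6 of 81 pairs were higher and 5 lower. PSMA4, a proteasome subunit gene next to CHRNA5, was called in no line, with responses between -0.26 and 0.08. HYKK, a hydroxylysine kinase gene beyond it, fell in H1417 (-0.70, adjusted p = 3.62e-05) and was at 0.43 (adjusted p = 0.0606) in H2171, the line where CHRNA3 and CHRNB4 fell. CTSH, a lysosomal protease gene on the far side of CHRNB4, rose in 5 lines, up to 0.65 in NCI-H510. Among 8 tested factors reported to act on the cluster's promoters, 5 of 72 pairs were higher and 5 lower. ISL1, a LIM homeodomain factor, fell in H1417 (-1.44), NCI-H146 (-0.67), H2171 (-0.62) and SHP-77 (-0.29) and rose in COLO668 (0.45) and NCI-H510 (2.20), and ETV1, an ETS factor, rose in H1417 (1.17), NCI-H510 (0.88) and NCI-H146 (0.64). SP1 was lower in 1 line and SP3 was called in none.

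Of 12 neuroendocrine markers tested, 11 of 108 pairs were higher and 28 lower. In NCI-H510, where CHRNA3 fell, 8 of the 12 were lower and 0 higher, where 14.4% of all genes were called. In COLO668, where CHRNA3 was called higher at 210221_at alone, 7 were lower and 2 higher, where 19.6% were. In NCI-H446, 3 were higher and 0 lower (5.13% of all genes called). CHRNA3 was called lower there at 210221_at alone, a call lost on leaving out some single arrays. In SHP-77, with no CHRNA3 call, 2 were higher and 2 lower (7.07%). In H2171, 2 of the 12 were lower (1.78%), and in H1417 3 were (8.49%). In NCI-H526, 3 were higher and 4 lower (20.0%). CHRNA3 was called higher there at 210221_at alone, a call also lost on leaving out some single arrays. In NCI-H146, where CHRNA3 was called lower at 210221_at and 211772_x_at, 1 was higher and 1 lower (5.91%). In H69, where CHRNA3 was called lower at 211587_x_at and 211772_x_at, 0 were higher and 1 lower (3.75%). GRP, the neuropeptide gastrin-releasing peptide, fell in 6 lines and was at -0.32 (adjusted p = 0.961) in H2171. Markers of other SCLC states were higher in 11 and lower in 4 of 63 pairs, led by VIM, the intermediate filament vimentin, up to 2.51 in NCI-H510. Immune markers were higher in 2 of 27 pairs (PTPRC in NCI-H146, 1.06, and CD3D in SHP-77, 0.27), and fibroblast and endothelial markers higher in 5 and lower in 4 of 90. The tested PTPRC probe set had a mean of 6.34 in NCI-H146 and 3.93 to 4.45 in the other lines. It may have passed the filter only through NCI-H146, where it is high, so its call there is no support. Whether a shift in cell state plays a part in the CHRNA3 responses was not tested. In bulk RNA, fewer cells that express a gene and less RNA per cell cannot be told apart.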

How the data were processed

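The data are 88 one-channel Affymetrix arrays, and the values are log2 signals in the deposited table; the summarisation and normalisation method is not given in the sources used here. Genes were named from GEO's platform annotation, and 41091 of 54675 probe sets carried 1 symbol, 1801 several and 11721 none; probe sets with several or none were left out, which removes CHRNA7. Probe sets with a group mean above the median of all values (7.41) were kept, 29598 in all. Linear models were fitted with limma 3.58.1 in R 4.3.3, with 1 mean per line, treatment and day over all arrays (46 residual degrees of freedom), and p-values were adjusted by Benjamini-Hochberg over all probe sets tested. Unequal change of 2 genes was tested by exact permutation in Python 3.11.15. The scripts were tested on simulated data.

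The members and the gene lists were chosen with earlier results of these data known. All probe sets of the members are named; of each list, the 2 genes with the largest called response, a few fixed genes, and others chosen after their values were seen. A few genes of these lists are not reported here. The most alike genes are the 3 with the highest Pearson correlation over the 9 lines. Replicate arrays of a group correlated between 0.969 and 0.998. The precision of each value is limited by the number of arrays, mostly 2 a group.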

Additional observations from a re-analysis of the deposited data

Results flagged for a closer look

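The response to 552A differed between lines, by the moderated F test of limma, for 7 results. Over the 6 time course lines F was 28.6 for CHRNA3 210221_at, 6.38 for CHRNA3 211772_x_at and 6.06 for CHRNB2 241389_at, and without NCI-H510 the last was 3.28 (adjusted p = 0.0649). Over the day 4 responses of all 9 lines F was 27.3 for CHRNB4, 23.5 for CHRNA3 210221_at, 7.54 for CHRNA3 211587_x_at and 13.8 for CHRNA3 211772_x_at; without H2171 the value of 211587_x_at was 2.40 (adjusted p = 0.175), and CHRNB4 was not testable. The CHRNB4 value was set by the vehicle arm of H2171, through which alone the probe set passed the filter, and supports nothing. The CHRNA3 210221_at response in COLO668 differed between day 7 and day 2 by 0.78. No array stood apart from its group in the 7 values tested, those of SHP-77 with 552A at day 7, where 4 arrays were available.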

How the results depend on the processing

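Of 1494 alternative values of the tests that answer a comparison, 1458 kept their direction and their side of the threshold, 27 lost the call, 9 gained it and 0 reversed. Most of these left out 1 array, in many cases an array outside the groups compared, which could hardly move the value. CHRNB4 tests set by the filter are also counted, so the share kept is no measure of robustness. Counts of calls ran from 15 to 19 for the line responses (16 as reported), from 7 to 10 for the responses by day (8) and from 5 to 7 for unequal pairs (7). For the line and day counts, the share of all probe sets called in each setting is not given here. Their differences are therefore not read as a property of the members. For CHRNA3 210221_at the response of single days missed the threshold in COLO668 (0.30 at day 2, 0.50 at day 4), NCI-H146 (-0.46 at day 4, -0.48 at day 7), NCI-H446 (-0.26 at day 2, -0.17 at day 7), NCI-H510 (-0.47 at day 7) and NCI-H526 (0.15, 0.20 and 0.42 at days 2, 4 and 7), where fewer arrays enter. With the probe sets of each gene averaged, NCI-H446 (-0.18) and NCI-H526 (0.13) lost the call and H69 gained it (-0.65). H69 also gained it with 1 probe set per gene, with the filter at the upper quartile and with its own arrays alone (-0.51 each). With only the arrays of a line, H1417 (-0.98) and NCI-H446 (-0.32) lost the call, and the counts of probe sets changed from day 2 to day 7 were 0 for the response and 0 for DMSO, against 1 each; without the 6 arrays in doubt the DMSO count was 2. With the replicate number as a block NCI-H526 was 0.24 (adjusted p = 0.055), and the block changed 1 other call by line or day, CHRNA3 211587_x_at in NCI-H446 at day 4 (-0.45, adjusted p = 0.0390). The labels give same-numbered arrays no shared source. Their deviations correlated above 0.1 for every pair in 10 of 21 line-days, with at least 1 value under -0.1 in 4, so the numbers were not taken to pair the arrays. At the level of arrays the shared responses of CHRNA3 (-0.49) and CHRNB4 (-0.23) were called. The CHRNB4 call rests on H2171, through whose vehicle arm alone the probe set passed the filter, and supports nothing. F over the time course lines was called for CHRNA5 with the ACTB difference as a covariate (3.03) and for CHRNB2 206635_at with the mean of its probe sets (4.39). Leaving out 1 array gave -0.37 to -0.26 in NCI-H446, 0.19 to 0.32 in NCI-H526 and F of 1.26 to 3.62 for CHRNA5 over 9 lines, called without NCI-H446 DMSO day 4 replicate 1 (adjusted p = 0.0113). That setting kept replicate 2 of the group, the array of narrow interquartile range, and no other single array left out gave the call. Single arrays were left out for the line responses, their differences and the shared response, not for the responses by day. Where no construction is named, the cause was not tested.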
